A study of Homo sapiens with 21 samples.

Results

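The unfolded protein and amino acid stress genes are 34 genes whose protein products sense misfolded protein or missing amino acids, carry that signal to the nucleus, or do the work of folding, degradation, transport and synthesis that follows. They were chosen by name, with no threshold on measured values but with earlier results of these data known. A count of members set beside the share of all genes is therefore a description, not independent support. Each of the 34 symbols was found in the platform annotation, among 18132 genes named there. Of these, 33 passed the filter on dim genes and entered the test, which covered 12644 genes. RNA was measured on 21 Affymetrix PrimeView arrays of 4 established human breast cancer cell lines. Each line was exposed for 6 hours to 250 nM THZ1, to 50 nM THZ1 or to DMSO, the solvent. THZ1 binds covalently to CDK7, a kinase that is part of the transcription factor TFIIH, and blocks it, and the series asks how transcription in triple-negative breast cancer depends on that kinase. MDA-MB-468 and BT-549 are triple-negative lines, lacking the oestrogen, progesterone and HER2 receptors. ZR-75-1 is labelled positive for the oestrogen receptor and T47D for the oestrogen and progesterone receptors, and both are called ER+ lines here. Each dose had 2 arrays in MDA-MB-468, in ZR-75-1 and in T47D, and 1 in BT-549.

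Misfolded protein in the endoplasmic reticulum (ER, which outside the line name ER+ always means this organelle here) is detected by the membrane proteins PERK (gene EIF2AK3), IRE1 (ERN1) and ATF6, which switch on chaperone and degradation genes. PERK and the amino acid sensor GCN2 (EIF2AK4) both phosphorylate the translation factor eIF2alpha, which slows protein synthesis and favours translation of the transcription factor ATF4. ATF4 and its partners then raise amino acid transporters, biosynthetic enzymes and feedback regulators, and the phosphatase subunits PPP1R15A and PPP1R15B remove the phosphate again.

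Elements known to carry these responses were searched for in RefSeq promoter windows (build GRCh38.p14), each running over 250 bases before to 50 bases after a gene's start. A window was held for 32 of the 34 members. The sequences below are the 250 bases upstream of the start for 7 of the members whose window held an element. They include chaperone genes that changed little and stress genes that fell, and an element found by its letters is a description, not a binding site. Each runs 5′ to 3′ on the gene's own strand in lower case, with the matches of either strand in capitals. HSPA5 (chr9:125241344-125241593, minus strand) and HSP90B1 (chr12:103930160-103930409, plus strand) encode the main chaperones of the ER.
HSPA5: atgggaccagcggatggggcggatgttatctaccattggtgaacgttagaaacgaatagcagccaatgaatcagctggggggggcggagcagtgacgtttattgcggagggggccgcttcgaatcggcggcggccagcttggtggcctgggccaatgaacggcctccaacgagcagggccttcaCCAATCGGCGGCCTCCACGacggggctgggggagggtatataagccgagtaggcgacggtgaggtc
HSP90B1: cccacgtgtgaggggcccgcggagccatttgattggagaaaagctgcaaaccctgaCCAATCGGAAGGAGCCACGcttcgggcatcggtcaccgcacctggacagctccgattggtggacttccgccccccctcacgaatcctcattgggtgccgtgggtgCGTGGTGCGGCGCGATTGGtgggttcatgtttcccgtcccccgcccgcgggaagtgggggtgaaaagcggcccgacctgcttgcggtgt
SDF2L1 (chr22:21642052-21642301, plus strand), a chaperone cofactor, and HERPUD1 (chr16:56931892-56932141, plus strand), a degradation factor, follow.
SDF2L1: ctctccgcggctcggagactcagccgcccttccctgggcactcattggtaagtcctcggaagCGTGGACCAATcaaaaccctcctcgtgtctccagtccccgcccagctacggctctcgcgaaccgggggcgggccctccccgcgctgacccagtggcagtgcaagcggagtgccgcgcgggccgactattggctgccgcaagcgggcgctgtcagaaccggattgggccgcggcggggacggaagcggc
HERPUD1: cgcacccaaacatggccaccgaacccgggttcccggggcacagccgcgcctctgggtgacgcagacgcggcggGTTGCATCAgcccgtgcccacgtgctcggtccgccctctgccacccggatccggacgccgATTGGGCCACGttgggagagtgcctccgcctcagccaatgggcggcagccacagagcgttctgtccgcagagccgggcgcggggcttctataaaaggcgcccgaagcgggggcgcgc
ASNS (chr7:97872409-97872658, minus strand) encodes asparagine synthetase, CHAC1 (chr15:40953221-40953470, plus strand) a glutathione-degrading enzyme, and PPP1R15B (chr1:204411818-204412067, minus strand) the constitutive eIF2alpha phosphatase subunit.
ASNS: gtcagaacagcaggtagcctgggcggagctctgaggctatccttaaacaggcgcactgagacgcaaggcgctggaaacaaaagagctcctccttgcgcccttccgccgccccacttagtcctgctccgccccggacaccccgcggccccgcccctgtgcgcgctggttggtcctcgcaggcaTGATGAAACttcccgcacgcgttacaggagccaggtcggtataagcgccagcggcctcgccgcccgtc
CHAC1: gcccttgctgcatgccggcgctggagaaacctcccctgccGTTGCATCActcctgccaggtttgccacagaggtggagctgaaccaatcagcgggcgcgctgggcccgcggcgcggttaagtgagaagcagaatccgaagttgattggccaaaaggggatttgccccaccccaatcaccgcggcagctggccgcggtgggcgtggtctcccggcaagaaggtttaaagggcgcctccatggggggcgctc
PPP1R15B: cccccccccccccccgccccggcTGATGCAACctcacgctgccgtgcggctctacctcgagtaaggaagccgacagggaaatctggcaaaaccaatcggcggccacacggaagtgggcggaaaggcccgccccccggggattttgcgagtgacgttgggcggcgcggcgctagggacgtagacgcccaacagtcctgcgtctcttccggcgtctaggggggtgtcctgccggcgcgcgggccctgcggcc

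The ER stress response element, CCAAT and CCACG with 9 bases between them on either strand, stood in the windows of 3 members, HSPA5, HSP90B1 and CRELD2, and in 0.0769% of all 35116 windows. In HSPA5 it began at base -66 from the start, and HSP90B1 held 2 copies, at -194 and -89. The related element II, ATTGG and CCACG with 1 base between them, stood in HERPUD1 (-117) and SDF2L1 (-188), and in 0.0541% of windows. The C/EBP-ATF response element, TGATGNAAN, to which ATF4 dimers bind, stood in 6 members' windows, those of ASNS (-68), CHAC1 (-210), PPP1R15B (-227), HERPUD1 (-177), CEBPG (-42) and, inside the transcribed part, SLC3A2, and in 3.61% of all windows. The unfolded protein response element, TGACGTGG, was in 0.729% of windows and in 0 of the 32 members' windows. No match overlapped another. The 32 members hold 44 windows, so a count of members and a share of windows are not alike in unit.

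The array values are probe set intensities as deposited, and changes are differences of log2 intensity, tested with limma and adjusted over all 12644 genes within a comparison. A gene was called changed at an adjusted p under 0.05, and errors of changes are standard errors (SE). The labels do not say that replicate arrays came from separate cultures, so a p-value here measures how far these arrays differ, possibly for technical reasons, and 2 arrays a group limit the precision. Mean intensity was alike on every array (326.4 to 342.8), but the 75th percentile was 140.3 to 186.0 on the 7 arrays at 250 nM, against 200.3 to 231.2 on the 7 DMSO arrays. How far this shift entered the changes was not tested, and values after centring each array or quantile normalisation are given beside many of the results that they change. A fixed mass of RNA was amplified, so values are not per cell. For the ER+ samples 1 label field reads MDA-MB-468, in conflict with the title and the stated cell line. With DMSO the receptor gene ESR1 averaged 30.88 ± 2.48 in MDA-MB-468, against 441.6 ± 9.32 in ZR-75-1 (SD, n = 2 each) and 906 ± 30.4 in T47D (n = 2), and it was not above background in BT-549 (18.45), which fits the titles. Of 7 immune and stromal markers, 3 or 4 were above background in a group, with summed intensities of 198.6 to 551.1 per array.

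After 6 hours at 250 nM, 13 members, most of them signalling and feedback genes, fell in each of the 3 replicated lines. On the probe sets used, 11 genes of protein folding and amino acid synthesis lay between -0.31 and 0.33 on the log2 scale. Those 11 were set apart after the values were seen and leave out the folding gene DNAJB9, which fell in each line. They had 4 calls lower and 11 higher over the 3 lines. The lower calls, of HSPA5 and SDF2L1, ended with centring. Quantile normalisation ended the higher calls of HSP90B1, CRELD2 and PDIA4, and that of PHGDH in MDA-MB-468. It kept those of PHGDH and SHMT2 in ZR-75-1 and T47D and of PSAT1 in ZR-75-1. Shares of all genes by line follow. The eIF2alpha phosphatase subunit PPP1R15B fell 12.7-fold in ZR-75-1, the transcription factor CEBPB 9.53-fold in MDA-MB-468 and the co-chaperone DNAJB9 9.51-fold in ZR-75-1. In MDA-MB-468, 16 of 33 members were lower and 4 higher, where 30.3% and 9.54% of all genes tested were. In ZR-75-1, 21 were lower and 5 higher, against 42.8% and 9.93% of all genes. In T47D, 16 were lower and 2 higher, against 33.7% and 9.61% of all genes. The members' median change was -0.23, -0.69 and -0.41 in MDA-MB-468, in ZR-75-1 and in T47D, and that of all genes -0.07, -0.18 and -0.08. Falls of at least 2-fold were called for 12, 13 and 6 members in these lines, and for 10.6%, 18.1% and 9.44% of all genes.

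The same 13 members fell in all 3 replicated lines, where 23% of all genes did. They were EIF2AK3, DDIT3, CEBPB, CEBPG, PPP1R15B, TRIB3, SESN2, DDIT4, SLC7A5, SLC3A2, VLDLR, DNAJB9 and HERPUD1. PHGDH, which opens serine synthesis, rose in all 3, as 3.59% of all genes did. No member was called in opposite directions in different lines, and 4 members were called in none. Centring each array on its median moved the median of all genes to 0.14, 0.08 and 0.05 in MDA-MB-468, in ZR-75-1 and in T47D. The counts of lower and higher members then became 14 and 9, 18 and 8, and 16 and 6, and the members' median in MDA-MB-468 became 0.02. Counts over all genes tested moved too. They became 2745 lower and 3479 higher in MDA-MB-468, 3986 and 3625 in ZR-75-1, and 3279 and 2453 in T47D. The 13 falls stayed called with centring, and with quantile normalisation all but that of CEBPG in T47D (-0.24, adjusted p = 0.0827) did.

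**Figure D1:**
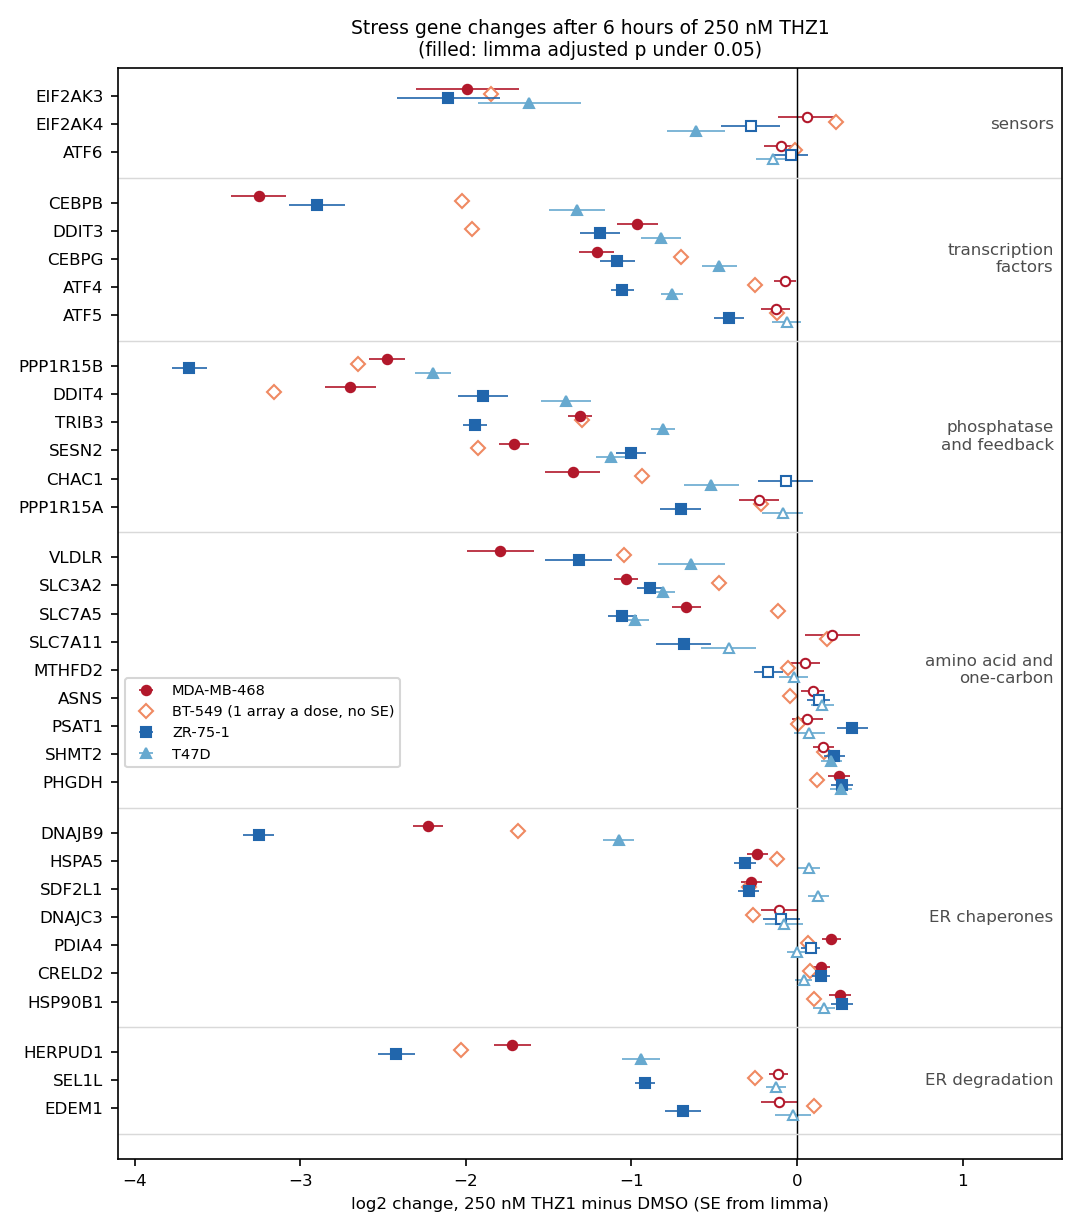
Log2 change at 250 nM THZ1 against DMSO (x axis, bars are limma SE) for the 33 tested members (y axis, grouped by role), with filled symbols for an adjusted p under 0.05. Open diamonds are the BT-549 differences, from 1 array a dose. Signalling and feedback genes spread to -3.67, while most chaperones and amino acid enzymes lie close to 0.

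Among the sensors, only EIF2AK3, which encodes PERK, fell in all 3 replicated lines. EIF2AK3 intensity in MDA-MB-468 was 203 and 412 with DMSO, 260.5 and 294 at 50 nM and 54.1 and 97.8 at 250 nM. EIF2AK3 intensity in ZR-75-1 was 756 and 784 with DMSO, 464 and 880.2 at 50 nM and 192 and 166 at 250 nM. EIF2AK3 intensity in T47D was 399 and 475 with DMSO, 416 and 460.2 at 50 nM and 132 and 153 at 250 nM. Every array at 250 nM lay below every DMSO array of its line, although the MDA-MB-468 DMSO arrays stood far apart from each other. The log2 change was -1.99 ± 0.31 in MDA-MB-468, -2.11 ± 0.31 in ZR-75-1 and -1.62 ± 0.31 in T47D (limma adjusted p = 7.05e-05, 2.35e-05 and 0.0005). Its 2 other probe sets also fell in each line (other probe sets of a gene are counted here where they passed the same filter on dim values). ATF6, the sensor that is cut in the Golgi to release a transcription factor, changed by -0.10, -0.04 and -0.14 in MDA-MB-468, in ZR-75-1 and in T47D and passed the test in none. EIF2AK4, which encodes GCN2, was called in T47D alone (-0.61 ± 0.18, limma adjusted p = 0.0109), against 0.06 in MDA-MB-468 and -0.28 in ZR-75-1. That call ended without DMSO array 2 (-0.57) or 250 nM array 1 (-0.60), with quantile normalisation (-0.34) and over the mean of its probe sets (-0.19). ERN1, which encodes IRE1, was too dim for the filter, with 26.5 to 60.8 over the 21 arrays, and was not tested. Its mean with DMSO and at 250 nM was 28.0 and 38.9 in MDA-MB-468, 44.1 and 53.0 in ZR-75-1, and 33.3 and 42.4 in T47D. In BT-549 the single arrays gave 29.2 and 47.1. These untested values were higher at 250 nM in each line, but close to background.

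Of the 5 transcription factor genes, CEBPB fell most, and DDIT3 and CEBPG fell with it in each replicated line. CEBPB encodes a bZIP factor that pairs with ATF4 family members. The MDA-MB-468 intensities of CEBPB were 1619 and 1698 with DMSO, 1223 and 1240 at 50 nM and 176 and 172 at 250 nM. Those of ZR-75-1 were 1573 and 1476 with DMSO, 1377 and 1184 at 50 nM and 208 and 200.7 at 250 nM, and those of T47D were 683 and 506 with DMSO, 515 and 618 at 50 nM and 184 and 296 at 250 nM. At 50 nM the level stood far above that at 250 nM, and no array at 250 nM overlapped those with DMSO. The log2 change at 250 nM was -3.25 ± 0.17 in MDA-MB-468, -2.90 ± 0.17 in ZR-75-1 and -1.33 ± 0.17 in T47D (limma adjusted p = 2.34e-10, 4.28e-10 and 8.31e-06). CEBPG, a dimer partner of ATF4, changed by -1.21 ± 0.10, -1.08 ± 0.10 and -0.47 ± 0.10 in MDA-MB-468, in ZR-75-1 and in T47D.

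DDIT3 encodes CHOP, the pro-apoptotic factor induced late in ER stress, and its array levels were low. The arrays of MDA-MB-468 gave DDIT3 intensities of 73.3 and 64.3 with DMSO, 35.3 and 37.8 at 50 nM and 36.1 and 34.4 at 250 nM. For DDIT3, ZR-75-1 gave 91.2 and 82.0 with DMSO, 59.2 and 60.7 at 50 nM and 35.7 and 40.2 at 250 nM. For DDIT3, T47D gave 109 and 114 with DMSO, 79.9 and 91.1 at 50 nM and 60.0 and 66.6 at 250 nM. In MDA-MB-468 the arrays at 50 nM already stood as low as those at 250 nM, whereas in ZR-75-1 and T47D each higher dose was lower than the one before. At 250 nM the log2 change was -0.96 ± 0.12 in MDA-MB-468, -1.19 ± 0.12 in ZR-75-1 and -0.82 ± 0.12 in T47D (limma adjusted p = 7.99e-06, 4.07e-07 and 4.69e-05). Both arrays at 250 nM lay above the background of 23.5 to 31.4 in each line, but close to it in MDA-MB-468 and ZR-75-1.

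ATF4 itself, the central factor of the amino acid response, fell in both ER+ lines and was not called in MDA-MB-468. In MDA-MB-468, ATF4 stood at 6147 and 6657 with DMSO, 6141 and 6342 at 50 nM and 5839 and 6353 at 250 nM. ZR-75-1 had 4331 and 4511 with DMSO, 3177 and 3426 at 50 nM and 2053 and 2207 at 250 nM. T47D had 3879 and 3566 with DMSO, 3317 and 3058 at 50 nM and 2240 and 2170 at 250 nM. At 250 nM the arrays of the ER+ lines lay at 2053 to 2240, well below DMSO, while the MDA-MB-468 arrays at 250 nM overlapped those with DMSO. The log2 change was -0.07 ± 0.067 in MDA-MB-468, -1.05 ± 0.067 in ZR-75-1 and -0.75 ± 0.067 in T47D (limma adjusted p = 0.453, 1.18e-09 and 1.58e-07). With quantile normalisation the MDA-MB-468 value was -0.21 and passed the test (adjusted p = 0.0159). ATF5, a relative translated by the same mechanism, was called lower in ZR-75-1 alone (-0.41 ± 0.089), and lost that call with centring (-0.16) and with quantile normalisation (-0.10).

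Of the 6 phosphatase and feedback genes, PPP1R15B, TRIB3, SESN2 and DDIT4 were called lower in all 3 replicated lines, CHAC1 in MDA-MB-468 and T47D, and PPP1R15A in ZR-75-1. That made 5 lower in each line, where 30.3%, 42.8% and 33.7% of all genes were in MDA-MB-468, in ZR-75-1 and in T47D. PPP1R15B encodes CReP, the subunit that keeps eIF2alpha dephosphorylated in unstressed cells. PPP1R15B intensity in MDA-MB-468 was 515 and 566 with DMSO, 275 and 261 at 50 nM and 106 and 88.9 at 250 nM. PPP1R15B intensity in ZR-75-1 was 1137 and 1076 with DMSO, 1042 and 809 at 50 nM and 84.4 and 89.5 at 250 nM. PPP1R15B intensity in T47D was 1188 and 1097 with DMSO, 829.6 and 858 at 50 nM and 244 and 254 at 250 nM. The 3 dose groups did not overlap in any of these lines, and in ZR-75-1 the wider step came between 50 and 250 nM. The log2 change at 250 nM was -2.48 ± 0.11 in MDA-MB-468, -3.67 ± 0.11 in ZR-75-1 and -2.20 ± 0.11 in T47D (limma adjusted p = 2.82e-11, 2.88e-13 and 3e-10). Its 3 other probe sets gave -2.03 to -0.64 in MDA-MB-468 and -3.17 to -0.49 in ZR-75-1, all called, and -1.22 to -0.33 in T47D, where 2 of the 3 were called. PPP1R15A, the stress-inducible partner known as GADD34, was called lower in ZR-75-1 alone (-0.70 ± 0.12), with -0.23 in MDA-MB-468 and -0.09 in T47D.

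DDIT4 and SESN2 encode REDD1 and sestrin 2, which restrain the growth kinase mTORC1, and both fell in every line at 250 nM. The MDA-MB-468 intensities of DDIT4 were 316 and 357 with DMSO, 232 and 311 at 50 nM and 53.3 and 50.3 at 250 nM. Those of ZR-75-1 were 317 and 286 with DMSO, 279 and 303 at 50 nM and 79.6 and 82.2 at 250 nM, and those of T47D were 146 and 128 with DMSO, 159.7 and 159.9 at 50 nM and 43.7 and 62.0 at 250 nM. In T47D the arrays at 50 nM stood slightly above DMSO before the level dropped at 250 nM. The log2 change of DDIT4 at 250 nM was -2.70 ± 0.15 in MDA-MB-468, -1.90 ± 0.15 in ZR-75-1 and -1.39 ± 0.15 in T47D (limma adjusted p = 6e-10, 2e-08 and 1.66e-06). The arrays of MDA-MB-468 gave SESN2 intensities of 121 and 125 with DMSO, 142 and 144 at 50 nM and 37.0 and 38.4 at 250 nM. For SESN2, ZR-75-1 gave 187 and 206 with DMSO, 250.3 and 247 at 50 nM and 93.5 and 102 at 250 nM. For SESN2, T47D gave 255 and 275 with DMSO, 299 and 298 at 50 nM and 114 and 130 at 250 nM. The 50 nM arrays of SESN2 lay above both DMSO arrays in all 3 lines, and those at 250 nM lay below them. The log2 change of SESN2 at 250 nM was -1.71 ± 0.090 in MDA-MB-468, -1.005 ± 0.090 in ZR-75-1 and -1.12 ± 0.090 in T47D (limma adjusted p = 2.7e-10, 7.39e-08 and 5.3e-08). A second SESN2 probe set gave -0.31, -0.34 and -0.65, of which the MDA-MB-468 one was not called.

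TRIB3, a pseudokinase that ATF4 induces and that dampens it in turn, fell in each line. In MDA-MB-468, TRIB3 stood at 842 and 831 with DMSO, 713 and 728 at 50 nM and 354 and 322 at 250 nM. ZR-75-1 had 645 and 632 with DMSO, 523 and 517 at 50 nM and 175 and 158 at 250 nM. T47D had 709 and 694 with DMSO, 765 and 712 at 50 nM and 383 and 419 at 250 nM. The arrays at 250 nM lay below all others of their line, by least in T47D. The log2 change at 250 nM was -1.31 ± 0.071 in MDA-MB-468, -1.94 ± 0.071 in ZR-75-1 and -0.81 ± 0.071 in T47D (limma adjusted p = 4.11e-10, 3.07e-12 and 1.56e-07). A second TRIB3 probe set gave -0.56, -1.06 and -0.38, of which the T47D one was not called. CHAC1 changed by -1.35 ± 0.17 in MDA-MB-468 and -0.52 ± 0.17 in T47D, both called, and by -0.07 ± 0.17 in ZR-75-1 (limma adjusted p = 0.774). The T47D call of CHAC1 ended without DMSO array 2 (-0.42), without 250 nM array 1 (-0.46), and with quantile normalisation (-0.35).

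**Figure D2:**
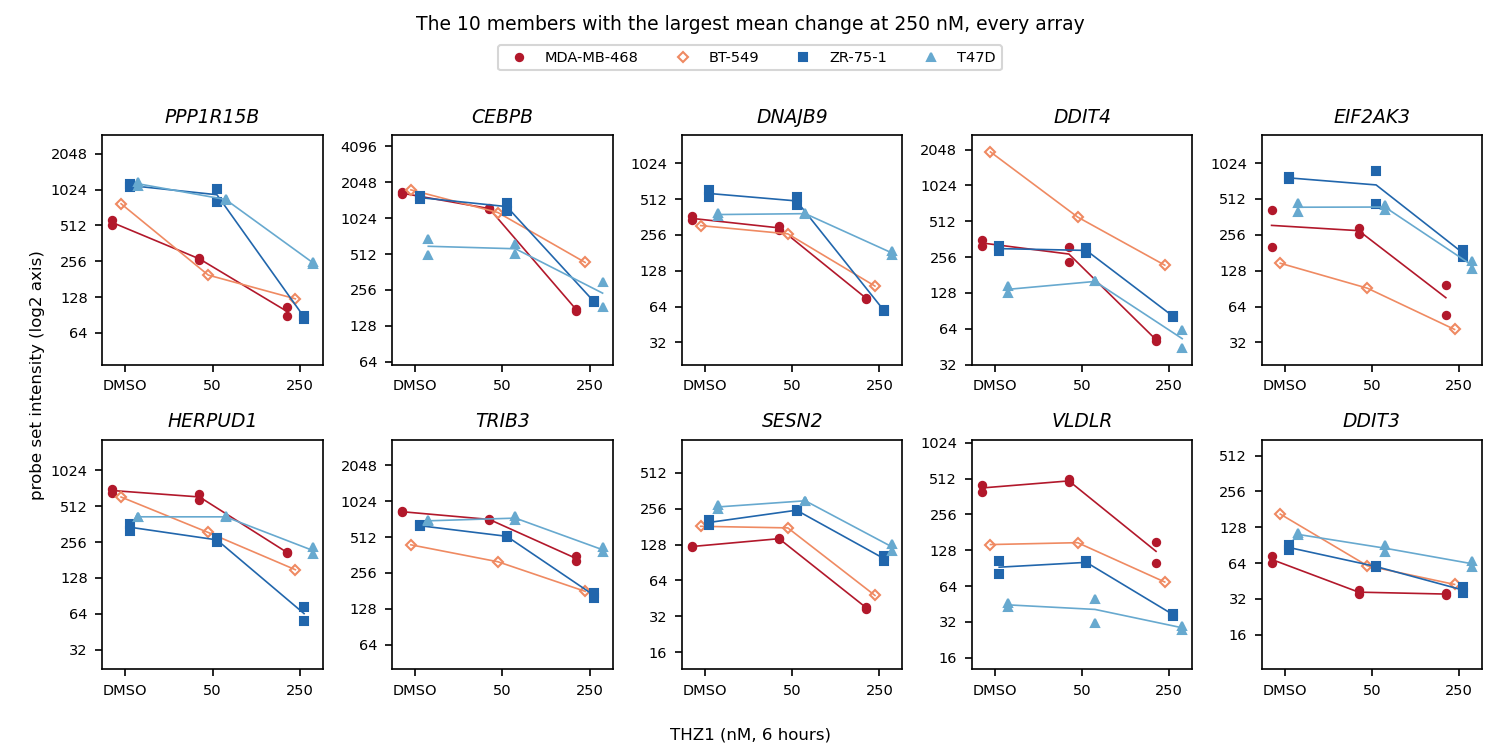
Probe set intensity (y axis, log2 axis) of the 10 members with the largest mean change at 250 nM, by THZ1 dose (x axis, nM). Points are single arrays and lines join group means. PPP1R15B in MDA-MB-468 steps down at each dose (515 and 566, 275 and 261, 106 and 88.9), whereas CEBPB and DNAJB9 drop between 50 and 250 nM.

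Of the 9 amino acid and one-carbon genes, SLC3A2, SLC7A5 and VLDLR fell in all 3 replicated lines, and no synthesis enzyme was called lower on the probe set used. SLC3A2 encodes the heavy chain shared by several amino acid exchangers, and SLC7A5 the light chain that pairs with it as the large neutral amino acid transporter LAT1. SLC3A2 intensity was 473 and 482 at 250 nM, against 955 and 997 with DMSO in MDA-MB-468, and 867 and 790 at 250 nM, against 1526 and 1539 with DMSO in ZR-75-1. It was 573 and 656 at 250 nM, against 1128 and 1027 with DMSO in T47D. All 6 arrays at 250 nM lay below the DMSO arrays of their line, with log2 changes of -1.03 ± 0.075, -0.89 ± 0.075 and -0.81 ± 0.075 in MDA-MB-468, in ZR-75-1 and in T47D (limma adjusted p = 1.15e-08, 3.36e-08 and 2.42e-07). The 6 other SLC3A2 probe sets were all called lower in each line, from -1.26 to -0.88.

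SLC7A5 changed by -0.67 ± 0.086 in MDA-MB-468, -1.06 ± 0.086 in ZR-75-1 and -0.98 ± 0.086 in T47D (limma adjusted p = 9.55e-06, 2.57e-08 and 1.53e-07). Its other probe set, above background on all 21 arrays, gave -0.02, -0.02 and 0.26 and was not called, so the SLC7A5 falls rest on 1 of its 2 probe sets past the filter. SLC7A11, the cystine transporter, was called lower in ZR-75-1 (-0.68 ± 0.16) and lost the call with quantile normalisation (-0.27), with 0.21 in MDA-MB-468 and -0.41 in T47D. VLDLR, a lipoprotein receptor that ATF4 can induce, had the largest mean fall of this role group. VLDLR intensity in MDA-MB-468 was 398 and 456 with DMSO, 504 and 476 at 50 nM and 101 and 150.2 at 250 nM. VLDLR intensity in ZR-75-1 was 104 and 80.3 with DMSO, 99.3 and 103 at 50 nM and 35.9 and 37.5 at 250 nM. VLDLR intensity in T47D was 46.0 and 43.1 with DMSO, 31.3 and 50.3 at 50 nM and 27.4 and 29.8 at 250 nM. The arrays at 250 nM lay below the DMSO arrays in each line, and in T47D only 1 of the 2 was above background. The log2 change was -1.79 ± 0.20 in MDA-MB-468, -1.32 ± 0.20 in ZR-75-1 and -0.64 ± 0.20 in T47D (limma adjusted p = 1.98e-06, 3.34e-05 and 0.0173). The T47D call ended without DMSO array 1 (-0.59) or 250 nM array 1 (-0.58).

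The 5 enzymes ASNS, PSAT1, PHGDH, SHMT2 and MTHFD2, a group set apart after the values were seen, changed by -0.18 to 0.33 at 250 nM. In 15 tests of gene and line, 0 were called lower and 6 higher on the probe sets used, where 30.3%, 42.8% and 33.7% of all genes were lower and 9.54%, 9.93% and 9.61% higher in MDA-MB-468, in ZR-75-1 and in T47D. ASNS, which makes asparagine and is a standard ATF4 target, was 1484 and 1423 at 250 nM, against 1331 and 1393 with DMSO in MDA-MB-468, 1508 and 1394 at 250 nM, against 1272 and 1380 with DMSO in ZR-75-1 and 986 and 941 at 250 nM, against 921 and 816 with DMSO in T47D. Its change of 0.09, 0.13 and 0.15 passed the test in none of these lines. With centring ASNS was called higher in all 3 (0.29, 0.38 and 0.27), and with quantile normalisation in ZR-75-1 (0.19) and T47D (0.29). PHGDH rose by 0.25 ± 0.067, 0.27 ± 0.067 and 0.27 ± 0.067 in MDA-MB-468, in ZR-75-1 and in T47D (limma adjusted p = 0.00663, 0.0026 and 0.00432). Its MDA-MB-468 call ended without DMSO array 2 (0.18), without 250 nM array 1 (0.15) and with quantile normalisation (0.14). SHMT2, the mitochondrial enzyme that passes a carbon unit from serine, rose in ZR-75-1 (0.23 ± 0.064) and T47D (0.21 ± 0.064). Those calls ended without 250 nM array 1 in ZR-75-1 (0.16), and without DMSO array 2 (0.19) or 250 nM array 2 (0.18) in T47D. PSAT1, the next step of serine synthesis, rose in ZR-75-1 (0.33 ± 0.094), where the mean of its 8 probe sets was not called (0.17). MTHFD2, the mitochondrial folate enzyme, was not called in any line on the probe set used (0.05, -0.18 and -0.02 in MDA-MB-468, in ZR-75-1 and in T47D). Of its 4 other probe sets, 3 were called lower in ZR-75-1 and 2 in T47D. Over the mean of probe sets it was called lower in both (-0.21, limma adjusted p = 0.00226, and -0.17, adjusted p = 0.0113), and with quantile normalisation in ZR-75-1 (-0.33).

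**Figure D3:**
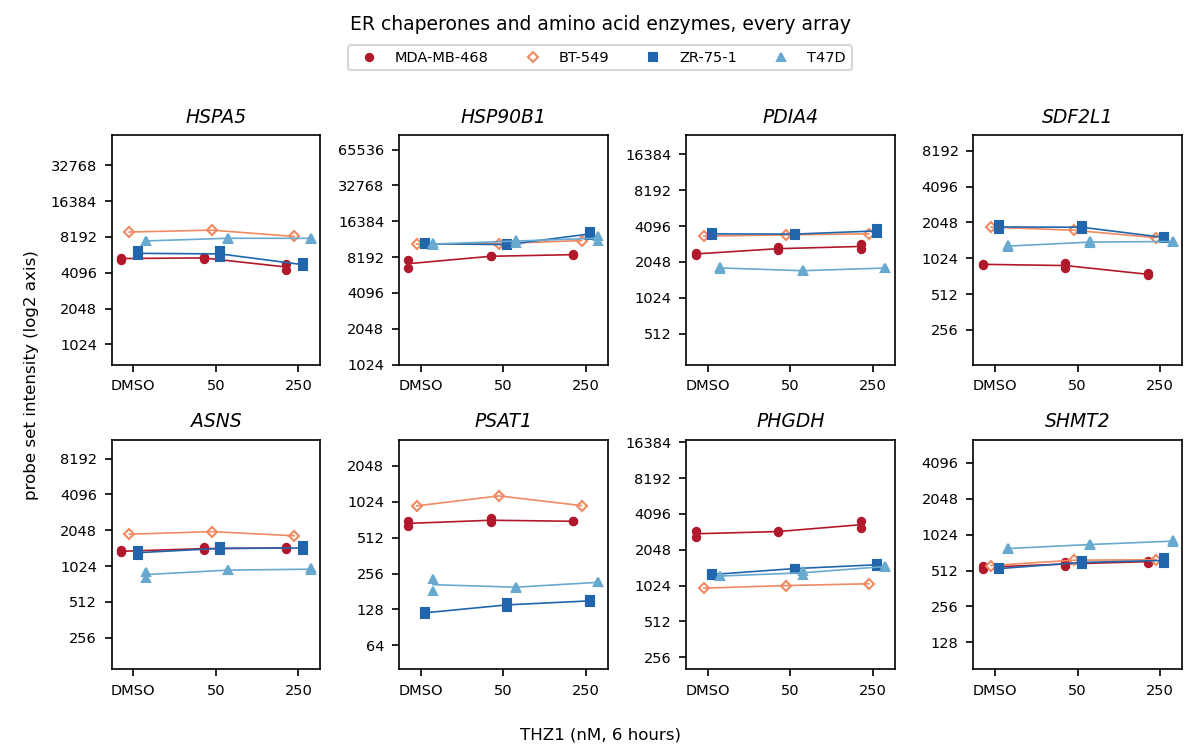
Probe set intensity (y axis, log2 axis) of 4 ER chaperone or folding genes (top) and 4 amino acid enzymes (bottom) by THZ1 dose (x axis, nM). Points are single arrays and lines join group means. On the probe sets used the lines move little across doses, as for ASNS in MDA-MB-468 (1484 and 1423 at 250 nM, against 1331 and 1393 with DMSO). Some small changes were called at 250 nM, among them HSPA5 lower in MDA-MB-468 and ZR-75-1 and PHGDH higher in all 3 replicated lines. DNAJB9, which fell steeply, is not drawn.

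Among the 7 chaperone and folding genes, DNAJB9 fell steeply while the other 6 changed by -0.31 to 0.27 on the probe sets used. DNAJB9 encodes ERdj4, a co-chaperone of the main ER chaperone BiP. The MDA-MB-468 intensities of DNAJB9 were 339 and 366 with DMSO, 303 and 284 at 50 nM and 74.1 and 76.1 at 250 nM. Those of ZR-75-1 were 613 and 528 with DMSO, 453 and 536 at 50 nM and 59.3 and 60.3 at 250 nM, and those of T47D were 392 and 367 with DMSO, 392 and 381 at 50 nM and 186 and 174 at 250 nM. Arrays at 50 nM stood near those with DMSO or slightly below, and those at 250 nM lay far below both. The log2 change at 250 nM was -2.23 ± 0.093 in MDA-MB-468, -3.25 ± 0.093 in ZR-75-1 and -1.08 ± 0.093 in T47D (limma adjusted p = 2.02e-11, 2.61e-13 and 1.21e-07). A second DNAJB9 probe set gave -1.97, -2.93 and -0.90, all called.

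HSPA5, which encodes BiP and whose window carries the ER stress response element printed above, was 4301 and 4860 at 250 nM, against 5295 and 5496 with DMSO in MDA-MB-468. It was 4956 and 4640 at 250 nM, against 5744 and 6195 with DMSO in ZR-75-1 and 8075 and 7870 at 250 nM, against 7615 and 7551 with DMSO in T47D. The change was -0.24 ± 0.066, -0.31 ± 0.066 and 0.07 ± 0.066 in these lines, called lower in the first 2 (limma adjusted p = 0.00819, 0.000682 and 0.412). Centring ended the calls in MDA-MB-468 (-0.04) and ZR-75-1 (-0.06), and the MDA-MB-468 call also ended without DMSO array 2 (-0.21) or 250 nM array 1 (-0.15). Over the mean of probe sets the MDA-MB-468 call ended too (-0.11). Of 5 other HSPA5 probe sets, 4 were called lower in ZR-75-1 (-0.82 to 0.10 over the 5). In T47D 2 of the 5 were called lower (-0.835 to -0.05), and in MDA-MB-468 none was (-0.225 to 0.04). SDF2L1 moved alike, by -0.28 ± 0.062 and -0.29 ± 0.062 in MDA-MB-468 and ZR-75-1, both called until centring (-0.08 and -0.04), and by 0.13 in T47D.

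HSP90B1, the ER member of the HSP90 family, was called higher in MDA-MB-468 (0.26 ± 0.067) and ZR-75-1 (0.27 ± 0.067). Quantile normalisation ended both calls (0.12 and 0.05), and the MDA-MB-468 one also ended without DMSO array 1 (0.14) and over the mean of its probe sets (0.03). CRELD2, a secreted folding factor, was called higher in the same lines (0.15 ± 0.052 and 0.14 ± 0.052), calls that ended in MDA-MB-468 without any 1 of its 4 arrays (0.13 to 0.16) and in ZR-75-1 without DMSO array 1 (0.12) or 250 nM array 2 (0.13). With quantile normalisation CRELD2 was not called in either line (0.15, limma adjusted p = 0.0511, and 0.02, adjusted p = 0.815), nor over the mean of its probe sets (0.14, adjusted p = 0.44, and 0.22, adjusted p = 0.161). PDIA4, a disulphide isomerase, was called higher in MDA-MB-468 alone (0.21 ± 0.058), until DMSO array 2 (0.19) or 250 nM array 2 (0.14) was left out or quantile normalisation applied (0.11). In T47D, 1 of 2 other PDIA4 probe sets was called higher (0.20). DNAJC3, an inhibitor of PERK and a co-chaperone, changed by -0.11, -0.09 and -0.08 and was not called.

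HERPUD1 was the member of ER-associated degradation, the export of misfolded proteins to the proteasome, that fell in all 3 lines. It encodes a membrane protein that organises the degradation complex, and its window carries element II and the C/EBP-ATF element. The arrays of MDA-MB-468 gave HERPUD1 intensities of 667 and 721 with DMSO, 644 and 582 at 50 nM and 209 and 213 at 250 nM. For HERPUD1, ZR-75-1 gave 366 and 317 with DMSO, 279 and 255 at 50 nM and 72.7 and 55.8 at 250 nM. For HERPUD1, T47D gave 416 and 419 with DMSO, 420.1 and 414 at 50 nM and 203 and 233 at 250 nM. Every array at 250 nM lay below the others of its line. The log2 change was -1.72 ± 0.11 in MDA-MB-468, -2.42 ± 0.11 in ZR-75-1 and -0.94 ± 0.11 in T47D (limma adjusted p = 3.46e-09, 3.45e-11 and 4.44e-06), and 2 other probe sets fell likewise. With an ER stress element, HERPUD1 fell by more than 1 log2 unit in 2 lines. On the probe sets used, HSPA5, HSP90B1, SDF2L1 and CRELD2 stayed between -0.31 and 0.27. Of the 6 members with a C/EBP-ATF element, CEBPG, HERPUD1, PPP1R15B and SLC3A2 were called lower in all 3 lines, CHAC1 in MDA-MB-468 and T47D, and ASNS in none. Lower in all 3 lines were 13 of the 33 tested members and 23% of all genes. A link between the elements and these changes was not tested.

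SEL1L, the adaptor of the HRD1 ubiquitin ligase, fell in ZR-75-1 alone. In MDA-MB-468, SEL1L stood at 553 and 558 with DMSO, 518 and 498 at 50 nM and 528 and 501 at 250 nM. ZR-75-1 had 1169 and 1141 with DMSO, 1079 and 979.6 at 50 nM and 622 and 601 at 250 nM. T47D had 1940 and 1875 with DMSO, 1891 and 1817 at 50 nM and 1790 and 1710 at 250 nM. The ZR-75-1 arrays at 250 nM lay well below DMSO, whereas in MDA-MB-468 and T47D the arrays at 250 nM were only slightly below. The log2 change was -0.11 ± 0.060 in MDA-MB-468, -0.92 ± 0.060 in ZR-75-1 and -0.12 ± 0.060 in T47D (limma adjusted p = 0.159, 1.63e-09 and 0.107). The other SEL1L probe set past the filter, above background on all 21 arrays, gave -0.008 in ZR-75-1 and was not called. EDEM1, which extracts misfolded glycoproteins for degradation, changed by -0.69 ± 0.11 in ZR-75-1 on the probe set used. Of its 4 other probe sets, 3 were called higher there, and the 4 spanned 0.37 to 0.79. In T47D 3 of those 4 were also called higher (0.39 to 0.78 over the 4), as was 1 in MDA-MB-468. The direction of EDEM1 thus depended on the probe set, and the mean over its 5 probe sets was 0.29 in ZR-75-1 and 0.49 in T47D.

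**Figure D4:**
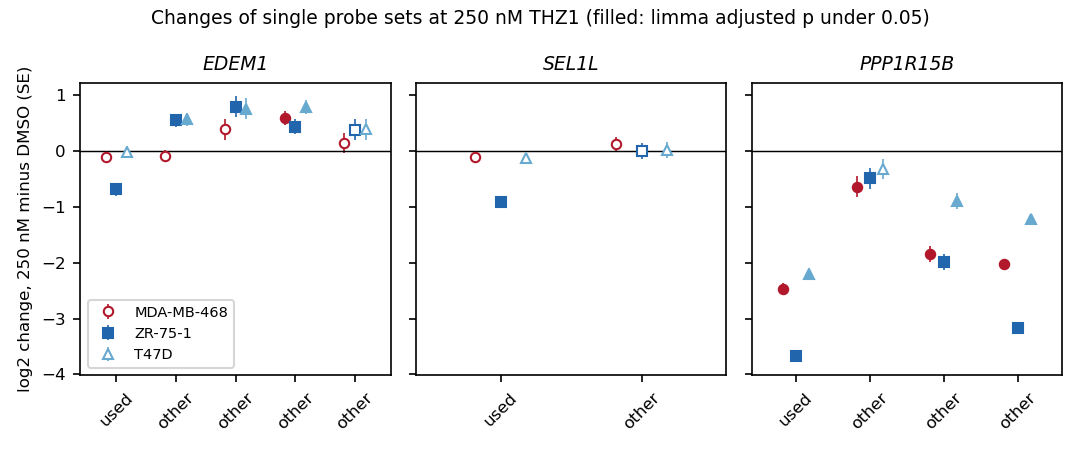
Log2 change at 250 nM THZ1 against DMSO (y axis, bars are limma SE) of each probe set of EDEM1, SEL1L and PPP1R15B (x axis, the probe set used and the others), with filled symbols for an adjusted p under 0.05. The used EDEM1 probe set lies at -0.69 in ZR-75-1 and the others there at 0.37 to 0.79, while all PPP1R15B probe sets lie below 0.

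At 50 nM in MDA-MB-468, 6 members were lower and 2 higher, where 14.6% and 4.42% of all genes were. In ZR-75-1, 5 were lower and 1 higher, against 5.68% and 2.79% of all genes. In T47D, 4 were lower and 0 higher, against 7.56% and 1.99%, and limma's unadjusted p was under 0.05 for 1 higher member, ATF5 (0.26 ± 0.089, adjusted p = 0.0807). SLC3A2 and SLC7A5, both chains of the LAT1 transporter, were the members lower in all 3 lines, as 2.83% of all genes were, and 0 members were higher in all 3 (0.522% of all genes). SLC3A2 changed by -0.34 ± 0.075, -0.38 ± 0.075 and -0.28 ± 0.075 and SLC7A5 by -0.31 ± 0.086, -0.47 ± 0.086 and -0.55 ± 0.086 in MDA-MB-468, in ZR-75-1 and in T47D. The T47D call of SLC3A2 ended without DMSO array 1 or 50 nM array 1 (-0.21 each), and the MDA-MB-468 call of SLC7A5 without DMSO array 2 (-0.27), 50 nM array 1 (-0.30) or 50 nM array 2 (-0.32). Centring ended the SLC3A2 calls in MDA-MB-468 (-0.20) and T47D (-0.24) and the SLC7A5 call in MDA-MB-468 (-0.17). The other SLC7A5 probe set gave 0.06, 0.06 and 0.05 and was not called, and over the mean of its probe sets SLC7A5 was not called in MDA-MB-468 (-0.13) or ZR-75-1 (-0.21).

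Among the replicated lines, the largest falls called at 50 nM were those of PPP1R15B and DDIT3 in MDA-MB-468. PPP1R15B fell 2.02-fold there (-1.01 ± 0.11, limma adjusted p = 7.69e-06) and DDIT3 1.88-fold (-0.91 ± 0.12, limma adjusted p = 7.51e-05), on arrays that did not overlap DMSO. In MDA-MB-468 the 3 other PPP1R15B probe sets gave -0.46 to -0.22, with 1 called. The other DDIT3 probe set gave -0.67 and was called. DDIT3 was also called in ZR-75-1 (-0.53 ± 0.12) and PPP1R15B in T47D (-0.44 ± 0.11), and ATF4 in ZR-75-1 (-0.42 ± 0.067, limma adjusted p = 0.00105) and T47D (-0.22 ± 0.067). TRIB3 was lower in MDA-MB-468 (-0.22) and ZR-75-1 (-0.30), and CHAC1 in MDA-MB-468 (-0.61). The PPP1R15B call in T47D ended with centring (-0.39, limma adjusted p = 0.0512) and over the mean of its probe sets (-0.03), and its 3 other probe sets there gave -0.06 to 0.34, none called. Centring also ended the calls of TRIB3 (-0.08 in MDA-MB-468 and -0.27 in ZR-75-1) and of ATF4 in T47D (-0.18), and quantile normalisation those of CHAC1 (-0.45, adjusted p = 0.0549) and of ATF4 in T47D (-0.21). Both TRIB3 calls ended over the mean of its probe sets as well (-0.13 in MDA-MB-468 and -0.20 in ZR-75-1). The higher members were HSP90B1 (0.21) and DNAJC3 (0.38) in MDA-MB-468 and SESN2 (0.34) in ZR-75-1. HSP90B1 lost the call without the trend, with its line alone, with quantile normalisation (0.16) and over the mean of its probe sets (0.04). SESN2 lost it with its line alone. SLC7A11 in MDA-MB-468 changed by more but was not called (0.48, limma adjusted p = 0.0537). It was called higher with centring (0.62), with quantile normalisation (0.58) and over the mean of its probe sets (0.37). Of the 18 calls at 50 nM, 11 ended when 1 array was left out. The 7 that did not were those of DDIT3, PPP1R15B and SLC3A2 in MDA-MB-468, ATF4, SLC3A2 and SLC7A5 in ZR-75-1, and SLC7A5 in T47D. Without DMSO array 1 of MDA-MB-468, HSP90B1 was at 0.10 and DNAJC3 at 0.22, and without DMSO array 2 HSP90B1 was at 0.33. At 250 nM, 11 of 64 calls ended in that way.

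Between the doses, 250 nM lay below 50 nM for 17 members in MDA-MB-468, 22 in ZR-75-1 and 14 in T47D, where 23.2%, 41.7% and 27.2% of all genes did. It lay above 50 nM for 1, 1 and 0 members, against 5.73%, 6.64% and 4.59% of all genes, and in T47D limma's unadjusted p was under 0.05 for 1 higher member, PHGDH (0.18 ± 0.067). CEBPB differed between 250 and 50 nM by -2.82 ± 0.17 in MDA-MB-468, -2.64 ± 0.17 in ZR-75-1 and -1.27 ± 0.17 in T47D, and SESN2 by -1.93 ± 0.090, -1.35 ± 0.090 and -1.29 ± 0.090. ATF5 was lower at 250 than at 50 nM in all 3 lines (-0.30, -0.45 and -0.33), with calls that ended in MDA-MB-468 without 50 nM array 1 (-0.19) or either 250 nM array (-0.30 each), and in T47D without 50 nM array 1 (-0.22) or 250 nM array 1 (-0.27). The ATF5 calls ended in all 3 lines with centring (-0.24, -0.22 and -0.25) and with quantile normalisation (-0.09, -0.14 and -0.13), and in MDA-MB-468 over the mean of its probe sets (-0.14). DDIT3 in MDA-MB-468 did not pass the test between these doses (-0.05 ± 0.12). The members called higher at 250 than at 50 nM were PHGDH in MDA-MB-468 (0.19), which lost the call without 50 nM array 1 (0.20), 50 nM array 2 (0.18) or 250 nM array 1 (0.09) and was at 0.29 without 250 nM array 2, and HSP90B1 in ZR-75-1 (0.30). These comparisons share arrays with those against DMSO.

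The size of the response at 250 nM differed between lines for part of the set. The MDA-MB-468 change minus the average of the ER+ changes was called below 0 for 6 members and above 0 for 5, where 5.12% and 13.9% of all genes were. Below 0, with the larger fall in MDA-MB-468, were CEBPB (-1.14 ± 0.21), CHAC1 (-1.06 ± 0.20), DDIT4 (-1.05 ± 0.19), VLDLR (-0.81 ± 0.25), SESN2 (-0.65 ± 0.11) and CEBPG (-0.43 ± 0.13). Above 0 were ATF4 (0.83 ± 0.082, limma adjusted p = 6.33e-06), SLC7A11 (0.76 ± 0.20), PPP1R15B (0.46 ± 0.13), SEL1L (0.41 ± 0.073) and SLC7A5 (0.35 ± 0.11). The average can hide unlike ER+ lines. PPP1R15B in MDA-MB-468 (-2.48) lay between ZR-75-1 (-3.67) and T47D (-2.20). SEL1L in MDA-MB-468 (-0.11) stood near T47D (-0.12), with ZR-75-1 at -0.92. The ATF4 difference was called whichever 1 of the 12 arrays was left out (0.77 to 0.89). DDIT4 changed by -2.70 in MDA-MB-468, against -1.90 in ZR-75-1 and -1.39 in T47D, and SESN2 by -1.71, against -1.005 and -1.12. Over the mean of probe sets, 5 of these 11 differences were not called. They were those of SESN2 (-0.23), SEL1L (0.24), SLC7A5 (0.10, limma adjusted p = 0.405), CEBPG (-0.24, adjusted p = 0.0849) and PPP1R15B (-0.0030). ATF4, CEBPB, DDIT4 and VLDLR have 1 probe set each, so that alternative could not alter their values. The VLDLR difference ended without any 1 of 7 arrays (-0.53 without 250 nM array 1 of MDA-MB-468), CEBPG without any 1 of 5 (-0.23 without 250 nM array 2 of MDA-MB-468), SLC7A5 without any 1 of 6 (0.30 to 0.34), PPP1R15B without any 1 of 3 (0.33 to 0.43), and SLC7A11 without DMSO array 1 (0.66) or 250 nM array 1 (0.70) of MDA-MB-468. With 1 TNBC line in the test, a difference between lines cannot be told apart from one between subtypes.

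Between the ER+ lines, the change in ZR-75-1 minus that in T47D was below 0 for 12 members and above 0 for 0, where 19.8% and 2.44% of all genes were. The widest difference above 0 was that of CHAC1 (0.45 ± 0.23), and limma's unadjusted p was under 0.05 for 0 members above 0. The difference was widest for DNAJB9, at -2.17 ± 0.13 (limma adjusted p = 4.32e-08), followed by CEBPB at -1.57 ± 0.24, HERPUD1 at -1.48 ± 0.16, PPP1R15B at -1.47 ± 0.15 and TRIB3 at -1.13 ± 0.10. SEL1L (-0.79 ± 0.085), EDEM1 (-0.67 ± 0.15), PPP1R15A (-0.62 ± 0.17), CEBPG (-0.61 ± 0.15), SDF2L1 (-0.42 ± 0.088), HSPA5 (-0.39 ± 0.093) and ATF4 (-0.30 ± 0.095) were called too. SEL1L and EDEM1 lost the call over the mean of their probe sets (-0.32 and -0.20), and with centring CEBPG (-0.49), PPP1R15A (-0.49), SDF2L1 (-0.29), HSPA5 (-0.26) and ATF4 (-0.17) did. The median difference over all genes was -0.12 and moved to 0.01 with centring, which left 7 members below 0. Of all genes tested, centring left 1437 called below 0, against 2498 without it. The ATF4 call also ended without any 1 of 5 arrays (-0.32 to -0.24), and that of PPP1R15A without any 1 of 3 (-0.57 to -0.50).

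**Figure D5:**
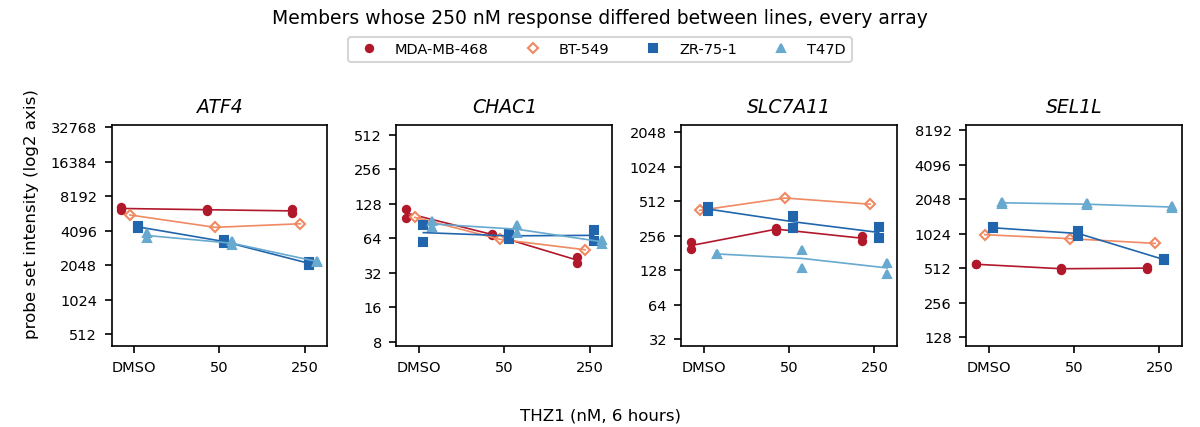
Probe set intensity (y axis, log2 axis) of 4 members whose response differed between lines, by THZ1 dose (x axis, nM). Points are single arrays and lines join group means. At 250 nM, ATF4 stands at 5839 and 6353 in MDA-MB-468, against 2053 to 2240 in ZR-75-1 and T47D.

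BT-549, the other TNBC line, had 1 array per dose and no replicate check, so its values stand without a test. At 250 nM, 10 of the 33 members were at least 2-fold lower than with DMSO, as 8.94% of all genes were, and 0 were 2-fold higher (0.182% of all genes). They were EIF2AK3, DDIT3, CEBPB, PPP1R15B, TRIB3, SESN2, DDIT4, VLDLR, DNAJB9 and HERPUD1. The median difference was -0.25 over the members and 0.01 over all genes. DDIT4 had the widest difference, at 1954 with DMSO, 555 at 50 nM and 219 at 250 nM. PPP1R15B followed with 778 with DMSO, 196 at 50 nM and 124 at 250 nM. HERPUD1 stood at 612 with DMSO, 308 at 50 nM and 150.1 at 250 nM. At 50 nM, 3 members were already at least 2-fold lower, PPP1R15B (3.97-fold), DDIT4 (3.52-fold) and DDIT3 (2.72-fold), where 3.24% of all genes were, and 0 were 2-fold higher (0.174%). ATF4 was at 5619 with DMSO, 4384 at 50 nM and 4710 at 250 nM, a log2 difference of -0.26 at 250 nM, smaller than in either ER+ line, and SLC7A5 at 752 with DMSO, 694 at 50 nM and 694 at 250 nM. CEBPB was at 1770 with DMSO, 1141 at 50 nM and 435 at 250 nM, and DNAJB9 at 307 with DMSO, 262 at 50 nM and 95.2 at 250 nM. The 6 other chaperone genes differed by -0.29 to 0.10 and the 5 amino acid enzymes by -0.06 to 0.16.

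A fit over 4 lines, with 1 mean per line and dose and the line as a term, gave the average response. Single lines need not share it, as for ATF4, at -0.07 in MDA-MB-468. At 250 nM, 15 members were lower and 3 higher, where 29.9% and 9.48% of all genes were. PPP1R15B changed by -2.75 ± 0.36, CEBPB by -2.38 ± 0.29, DDIT4 by -2.29 ± 0.30, DNAJB9 by -2.06 ± 0.30 and EIF2AK3 by -1.89 ± 0.13 (limma adjusted p = 5.47e-05, the smallest among members). HERPUD1 (-1.78 ± 0.22), SESN2 (-1.44 ± 0.15), TRIB3 (-1.34 ± 0.16), DDIT3 (-1.23 ± 0.19), VLDLR (-1.20 ± 0.20), CEBPG (-0.87 ± 0.13), SLC3A2 (-0.80 ± 0.085), SLC7A5 (-0.70 ± 0.13), CHAC1 (-0.72 ± 0.18) and ATF4 (-0.53 ± 0.14) were lower as well. PHGDH (0.23 ± 0.044), HSP90B1 (0.20 ± 0.044) and SHMT2 (0.19 ± 0.050) were higher. ATF4 lost its call without ZR-75-1 (-0.36) or T47D (-0.46), CHAC1 without MDA-MB-468 (-0.51) or BT-549 (-0.65), and SHMT2 without MDA-MB-468 (0.20), ZR-75-1 or T47D (0.18 each). Over the mean of probe sets SHMT2 (0.13, limma adjusted p = 0.0661) and HSP90B1 (0.07) were not called, and HSP90B1 was not called with quantile normalisation (0.04). At 50 nM limma called 0 members over the 4 lines, where 0.316% of all genes were lower and 0.182% higher. At an unadjusted p under 0.05, 4 were lower (SLC3A2, SLC7A5, PPP1R15B and DDIT3) and 2 higher (SHMT2 and DNAJC3), and the smallest adjusted p was 0.0939.

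Before treatment the lines already differed in most members. With DMSO, 19 members were lower in MDA-MB-468 than in the mean of ZR-75-1 and T47D and 12 higher, where 34.4% and 33.1% of all genes were. VLDLR was higher by 2.74 ± 0.17 in MDA-MB-468 (398 and 456), against ZR-75-1 (104 and 80.3) and T47D (46.0 and 43.1). The serine synthesis genes PSAT1 (2.10 ± 0.081) and PHGDH (1.16 ± 0.058) were higher too, with PHGDH at 2933 and 2642 in MDA-MB-468, against 1280 and 1256 in ZR-75-1 and 1243 and 1220 in T47D. ATF4 (0.66 ± 0.058) and CEBPB (0.81 ± 0.15) were higher as well. SEL1L (-1.42 ± 0.052), EIF2AK4 (-1.39 ± 0.15), ATF5 (-1.12 ± 0.077) and PPP1R15B (-1.06 ± 0.092) were lower, and so was EIF2AK3 (-1.001 ± 0.27), whose call ended without MDA-MB-468 DMSO array 1 (-0.49) and whose value was -1.51 without array 2. These DMSO levels also enter the changes at 250 nM.

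Genes of the same pathways that are not members were described from lists of 88 genes, of which 81 were tested. At 250 nM, 17 were lower and 12 higher in MDA-MB-468, 31 and 11 in ZR-75-1, and 20 and 12 in T47D, with medians of 0.07, -0.08 and -0.02, where those of all genes were -0.07, -0.18 and -0.08. Of all genes, 30.3% were lower and 9.54% higher in MDA-MB-468, 42.8% and 9.93% in ZR-75-1, and 33.7% and 9.61% in T47D. At 50 nM, 9 were lower and 8 higher in MDA-MB-468 (14.6% and 4.42% of all genes), 5 and 2 in ZR-75-1 (5.68% and 2.79%), and 9 and 1 in T47D (7.56% and 1.99%). SLC38A2, a neutral amino acid transporter induced by amino acid shortage, fell most at 250 nM in each line (-3.13 ± 0.067, -2.88 ± 0.067 and -2.57 ± 0.067). Its 2 other probe sets gave -0.50 to -0.40 in MDA-MB-468 and ZR-75-1 and 0.03 and 0.04 in T47D. In second place were BBC3 in MDA-MB-468 (-2.23 ± 0.24; another probe set gave -0.22, not called), which encodes the death protein PUMA, SYVN1 in ZR-75-1 (-2.28 ± 0.083), the ubiquitin ligase HRD1, and TXNIP in T47D (-1.30 ± 0.088), an inhibitor of thioredoxin. XBP1, the transcription factor spliced by IRE1, was outside the naming rule and was picked after its values were seen. It changed by -1.55 ± 0.072 in MDA-MB-468, -1.56 ± 0.072 in ZR-75-1 and -0.38 ± 0.072 in T47D, called lower in each.

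Of the 18 other folding genes, 2 were lower and 7 higher in MDA-MB-468, 4 and 9 in ZR-75-1, and 2 and 6 in T47D at 250 nM, where 30.3%, 42.8% and 33.7% of all genes were lower and 9.54%, 9.93% and 9.61% higher. The largest rises among all 81 genes were those of PPIB (0.37 ± 0.070), an ER prolyl isomerase, and EIF2B1 (0.36 ± 0.057), a subunit of the exchange factor for eIF2, in MDA-MB-468. The 2 other EIF2B1 probe sets there gave 0.003 and 0.15 and were not called. In ZR-75-1 the largest rises were SEC61B (0.54 ± 0.14), of the ER translocation channel, and DERL1 (0.40 ± 0.061), a degradation channel protein whose 2 other probe sets were called lower. In T47D they were DNAJC10 (0.46 ± 0.12), a disulphide reductase, and EIF2AK1 (0.35 ± 0.12), the haem-regulated eIF2alpha kinase. The 4 other DNAJC10 probe sets gave -0.16 to 0.19, none called. Of 7 other EIF2AK1 probe sets, 1 was called higher and 2 lower. At 50 nM, SLC38A2 (-0.97 ± 0.067) and MBTPS2 (-0.55 ± 0.078), a protease that cuts ATF6, fell in MDA-MB-468, where the other SLC38A2 probe sets gave -0.04 and 0.17. In ZR-75-1 GDF15 (-0.77 ± 0.10), a stress cytokine, and TXNIP (-0.33 ± 0.088) did. In T47D XPOT (-0.52 ± 0.13), which exports tRNA, and MTHFD1L (-0.50 ± 0.15), a folate enzyme with 1 of 3 other probe sets called higher, did. CTH, which makes cysteine, rose at 50 nM in MDA-MB-468 (0.65 ± 0.15) and ZR-75-1 (0.95 ± 0.15), and was at 0.03 and 0.15 at 250 nM. The ER co-chaperone DNAJC1 rose in the same lines at 50 nM (0.41 and 0.27), and SEC61A1 was the gene of these lists that rose in T47D (0.20).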

How the data were processed

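RNA from 21 samples (4 lines at 3 doses) was measured on 3′ expression arrays. Per the labels' protocols, ERCC spike-in RNA was added per number of cells, after which the same mass of RNA per sample was amplified and labelled with biotin. The values deposited are linear probe set intensity (0.932 to 28797 over 49395 probe sets), made with MAS5 per the submitters' processing notes. The sources used here do not give its version or how arrays were scaled. GEO's platform annotation assigns 44994 probe sets 1 gene symbol and 1832 several (not named), with 2569 without an entry. Symbols were updated through Entrez identifiers for 44967.

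Intensities were floored at 1 and taken to log2 with no further scaling. Each gene was read from its brightest probe set on average. Genes were tested if any group averaged at or above the overall median (intensity 57.4), which left 12644 of 18132. limma 3.58.1 (R 4.3.3; lmFit, eBayes with trend) fitted 9 group means on 18 arrays (9 residual and 6.18 prior degrees of freedom), and 1 mean per line and dose (12 in all) with a line term (6 and 3.17). Calls are Benjamini-Hochberg adjusted p under 0.05 within a comparison. Background is the mean log2 of 23 control probe sets per array. Scripts were tested on simulated data. Across probe sets, which are not independent of each other, r between replicates was 0.9905 to 0.9934.

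The members and the gene lists were chosen with earlier results of these data known. Values on every array are given for the 10 members with the largest mean change at 250 nM over the replicated lines and for up to 4 members by moderated statistic in each difference between lines. Of other pathway genes, the 2 largest called changes per direction and comparison are named. Of the 88 listed, 5 symbols were not matched in the annotation, and SLC43A1 and ALDH1L2 were below the filter. Alternatives were no trend, a replicate block, 1 line alone, centring, quantile normalisation, a floor of 16, no filter, the mean over probe sets, and leaving out each array or line. Promoter windows came from RefSeq (GRCh38.p14).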

Additional observations from a re-analysis of the deposited data

Results flagged for a closer look

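The values here are differences between the lines' log2 changes at 250 nM THZ1, each past the limma test of the difference itself. MDA-MB-468 minus the mean of ZR-75-1 and T47D gave 11 members. ATF4 stood at 0.83, SLC7A11 at 0.76, PPP1R15B at 0.46, SEL1L at 0.41 and SLC7A5 at 0.35, with the MDA-MB-468 change above the mean of the ER+ lines. For PPP1R15B the MDA-MB-468 change (-2.48) lay between those of ZR-75-1 (-3.67) and T47D (-2.20). For SEL1L it (-0.11) stood near that of T47D (-0.12). CEBPB stood at -1.14, CHAC1 at -1.06, DDIT4 at -1.05, VLDLR at -0.81, SESN2 at -0.65 and CEBPG at -0.43. Over the mean of probe sets, 5 of the 11 were not called, those of SESN2 (-0.23), SEL1L (0.24), SLC7A5 (0.10), CEBPG (-0.24) and PPP1R15B (-0.0030). ATF4, CEBPB, DDIT4 and VLDLR have 1 probe set each, so that alternative could not alter their values.

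ZR-75-1 minus T47D gave 12 members, each with the lower log2 change in ZR-75-1 on the probe set used. In T47D, HSPA5 (0.07) and SDF2L1 (0.13) did not fall. The 4 other EDEM1 probe sets gave 0.37 to 0.79 in ZR-75-1. Over the mean of their probe sets, SEL1L (-0.32) and EDEM1 (-0.20) lost the call of the difference. The 12 were DNAJB9 at -2.17, CEBPB at -1.57, HERPUD1 at -1.48, PPP1R15B at -1.47, TRIB3 at -1.13, SEL1L at -0.79, EDEM1 at -0.67, PPP1R15A at -0.62, CEBPG at -0.61, SDF2L1 at -0.42, HSPA5 at -0.39 and ATF4 at -0.30. The 75th percentile of intensity was 145.7 and 140.3 on the ZR-75-1 arrays at 250 nM, against 177.5 and 186.0 on those of T47D, and its part in these differences was not tested. DNAJB9, CEBPB, HERPUD1, PPP1R15B and TRIB3 were also called with centring and with quantile normalisation.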

How the results depend on the processing

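Of the counts of members and of BT-549 medians recomputed under each alternative, 290 values stayed within the limits set, 59 moved and 1 reversed, and the cause was not tested unless named. Centring shifts every gene of an array alike, and it changed the counts of higher members most. Over all genes tested, it moved those called higher at 50 nM from 559 to 1605 in MDA-MB-468. The same counts went from 353 to 251 in ZR-75-1 and from 252 to 217 in T47D. Over the 4 lines at 250 nM they went from 1199 to 3897. Quantile normalisation moved them to 4123 there, and from 1215 to 3358 in T47D at 250 nM. With centring, MDA-MB-468 at 50 nM had 3 lower and 7 higher (6 and 2 as reported), and 9 were higher there at 250 nM, 8 in ZR-75-1, 6 in T47D and 8 over the 4 lines. T47D at 50 nM had 1 lower, 250 against 50 nM had 8 higher in ZR-75-1 and 1 in T47D, ZR-75-1 minus T47D had 7 below 0, and the BT-549 median at 50 nM became 0.02. With quantile normalisation the higher members were 4 in MDA-MB-468 and 1 in T47D at 50 nM, 7 in T47D and 6 over the 4 lines at 250 nM, 2, 5 and 3 for 250 against 50 nM in MDA-MB-468, in ZR-75-1 and in T47D, and 2 for ZR-75-1 minus T47D, and the BT-549 median at 250 nM was -0.14. Over the mean of all probe sets they were 2 in ZR-75-1 and 1 in T47D at 50 nM, 4 in T47D and 1 over the 4 lines at 250 nM, 0 in ZR-75-1 and 2 in T47D for 250 against 50 nM, and 3 for MDA-MB-468 minus the ER+ lines. Without the trend MDA-MB-468 had 1 higher at 50 nM and 0 for 250 against 50 nM. With 1 line fitted alone, ZR-75-1 had 3 lower and 0 higher at 50 nM, and 250 against 50 nM had 0 higher in MDA-MB-468 and 1 in T47D. With no filter these were 0 in MDA-MB-468 and 2 in ZR-75-1. The floor of 16 moved no count.

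Same-numbered arrays did not deviate together in every pair (correlations of deviations -0.22 to 0.291), so the numbers were not taken to pair the arrays. A replicate block changed the count of higher members at 250 against 50 nM in T47D to 1 and left the other counts within the limits. Leaving out 1 array, which leaves 1 array in its group with the spread pooled from the others, gave 3 to 4 lower and 0 to 2 higher in MDA-MB-468 at 50 nM, 3 to 4 and 0 to 1 in ZR-75-1, and 1 to 3 and 0 to 1 in T47D. At 250 nM it gave 15 to 16 and 1 to 3 in MDA-MB-468, 21 to 22 and 4 to 5 in ZR-75-1, 14 to 16 and 1 to 3 in T47D, and, leaving out 1 line, 14 to 16 and 2 to 3 over the 4 lines. For 250 against 50 nM it gave 14 to 17 and 0 to 1, 20 to 22 and 1, and 11 to 14 and 0. The differences between lines had 4 to 6 below and 2 to 5 above 0 (MDA-MB-468 minus ER+), and 10 to 12 and 0 to 1 (ZR-75-1 minus T47D). With DMSO, 16 to 19 were lower and 10 to 12 higher.

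Of the single-gene values, 5363 kept direction and call, 228 lost the call, 105 gained one and 13 reversed. Quantile normalisation turned ATF6 in ZR-75-1 at 250 nM (0.47, and 0.47 against 50 nM) and over the 4 lines (0.27), DNAJC3 in ZR-75-1 (0.32, and 0.03 against 50 nM) and ATF5 in T47D (0.25). The mean over probe sets turned EDEM1 in ZR-75-1 (0.29) and T47D (0.49), HSPA5 in T47D (-0.22) and in MDA-MB-468 minus ER+ (0.26), MTHFD2 in MDA-MB-468 against 50 nM (-0.14), PPP1R15B in MDA-MB-468 minus ER+ (-0.0030) and DNAJC3 with DMSO (-0.32). Arrays of DDIT3 and VLDLR near background limit how low their changes could be measured.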
